A study of Mus musculus with 23 samples.

Results

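The myosin light chains and their kinases were examined as 10 genes, taken by symbol from the deposited gene tables: 8 light chains (Myl1, Myl2, Myl3, Myl4, Myl6, Myl6b, Myl9 and Mylpf) and 2 light chain kinases (Mylk and Mylk2), out of 32793 rows. All 10 were present, and 8 passed the filter on low counts; Myl2 and Myl3 did not. The 23 RNA libraries came from C2C12 cells, mouse myoblasts that fuse into myotubes when serum is withdrawn. Control cells (titled WT) and Runx1KO cells (titled KO) were taken on day 0, while growing in 20% fetal bovine serum, and after 1, 3 and 6 days of differentiation in 2% horse serum. The series text gives 5 days, not 6, for the last time point. Each of the 8 groups had 3 libraries, except WT in growth medium, which had 2. The labels do not say whether the replicates were separate cultures, how the knockout was made or whether it is 1 clone, so the p-values measure only the spread between these samples.

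Myosin is a motor built from paired heavy chains, and each heavy chain neck binds an essential and a regulatory light chain. Skeletal muscle uses its own light chains in the sarcomere, the contractile unit, while smooth muscle and non-muscle cells use others. In smooth muscle and non-muscle myosin, phosphorylation of the regulatory light chain by a calcium-activated kinase switches the motor on, whereas in skeletal muscle the same modification tunes force. Myoblasts that differentiate change from non-muscle to sarcomeric myosin.

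Runx1 is the targeted gene, and its mRNA was higher, not lower, under the KO label. On day 6 the estimated counts of Runx1 were 6740, 7433 and 7226 in libraries labelled KO and 3395, 3334 and 3931 in WT, a log2 fold change of 1.02 ± 0.083 (SE; n = 3 and 3; adjusted p = 6.11e-10, edgeR). It was also higher on the other 3 days (log2 fold change 0.35 to 0.54). These values check the amount of mRNA only, so the groups are called by their labels throughout. Total counts ran from 22197606 to 23684077 per library. Replicate 2 of the day 1 libraries labelled KO stood apart: its mean absolute log2 difference from its replicates was 0.394, against 0.172 to 0.268 in the other libraries. The myoblast markers Des and Myod1 had at least 22218 and 3180 counts in every library. Differentiated muscle was read from the summed TPM (RSEM's transcript level, corrected for length and depth) of 5 markers (Myog, Ckm, Acta1, Tnnt3 and Mymk). In growth medium it was 2.24 to 2.36 in WT and 3.35 to 3.47 in libraries labelled KO, low but without overlap. On day 6 it was 1850 to 2286 in WT and 11007 to 12925 in libraries labelled KO. All 5 were higher in libraries labelled KO on days 3 and 6 and 4 of 5 on day 1, so they moved with the sarcomeric light chains below, and their part in those results was not tested. In bulk RNA, more differentiated cells and more RNA per cell cannot be told apart.

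Promoter stretches of 4 light chain genes are shown because these had the largest genotype differences on day 6: under the KO label Myl4, Myl1 and Mylpf were higher and Myl9 was lower. The sequences are from RefSeq on GRCm38.p6, the build with the mm10 coordinates named in the submitters' processing notes. They run 5′ to 3′ on the gene's strand, and bases inside annotated GENCODE exons are left out, which leaves 42 bases for Myl4. Capitals mark an E-box (CANNTG, the motif class read by muscle bHLH factors) or a CArG box (CC, then 6 of A or T, then GG, the motif of serum response factor), searched on both strands.
Mylpf, chr7:127211358-127211607, plus strand: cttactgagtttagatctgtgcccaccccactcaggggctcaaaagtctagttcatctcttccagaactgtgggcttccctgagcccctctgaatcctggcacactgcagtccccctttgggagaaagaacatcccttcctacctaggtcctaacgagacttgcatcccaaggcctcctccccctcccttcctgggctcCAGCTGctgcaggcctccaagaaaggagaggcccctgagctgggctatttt
Myl1, chr1:66945144-66945290, minus strand: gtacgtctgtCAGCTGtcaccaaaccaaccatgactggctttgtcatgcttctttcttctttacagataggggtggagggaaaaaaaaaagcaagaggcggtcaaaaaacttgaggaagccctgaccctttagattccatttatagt
Myl4, chr11:104550621-104550662, plus strand: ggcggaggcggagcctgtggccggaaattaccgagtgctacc
Myl9, chr2:156775214-156775407, plus strand: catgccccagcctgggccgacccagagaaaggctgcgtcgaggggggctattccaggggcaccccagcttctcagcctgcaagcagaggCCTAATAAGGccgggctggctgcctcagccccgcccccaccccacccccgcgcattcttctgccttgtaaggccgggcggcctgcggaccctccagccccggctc
Mylpf and Myl1 each held 1 E-box in the 250 bases before the RefSeq start, and in both it read CAGCTG, at 51 to 46 bases in Mylpf and at 224 to 219 bases in Myl1. An E-box of any middle bases occurred in 66.2% of the 32851 RefSeq promoters of this length, and CAGCTG, which is part of that class, in 13%. The Myl4 window held neither motif. The Myl9 window held no E-box and 1 CArG box, at 161 to 152 bases, a motif found in 1.47% of the promoters. Of the other members, Myl6 held an E-box in 1 of its 2 entries and a CArG box in the other, Myl3 held both motifs, Myl6b and Myl2 held E-boxes, among them CAGCTG in 1 Myl2 entry, and Mylk held neither. The Runx motif TGTGGT, found in 14% of the promoters, occurred in the Mylk window only, at 93 to 88 and 83 to 78 bases. Of the 10 genes, 9 had a promoter entry, 11 entries in all. For Myl1, Mylpf and Myl4 other protein-coding starts are annotated upstream or within the gene, and the tables do not say which start was used.

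In differentiation medium the light chain message shifted toward sarcomeric genes in both genotypes, and the sarcomeric share was higher in libraries labelled KO from day 1 on. The 5 sarcomeric light chains (Myl1, Myl2, Myl3, Myl4 and Mylpf) together made up 0.237% ± 0.067 (SD, n = 2) of the light chain TPM in WT and 0.216% ± 0.042 (SD, n = 3) in libraries labelled KO in growth medium. On day 1 the shares were 0.857% ± 0.173 and 3.28% ± 0.156 (SD, n = 3 each). On day 3 they were 23.6% ± 0.748 and 58.6% ± 6.34, and on day 6 they were 34.6% ± 4.59 and 86.1% ± 0.666. From day 1 on, every library labelled KO lay above every WT library of its day: the ranges on day 6 were 85.4% to 86.7% and 29.5% to 38.5%. These shares leave out 4 light chains that are not members, of which Myl12a and Myl12b are abundant non-muscle forms. With these 4 in the denominator, a choice made after seeing the data, the sarcomeric share was 0.131% in WT and 0.121% in libraries labelled KO in growth medium, and 22.0% (18.8% to 24.8% over 3 libraries) and 71.9% (69.7% to 73.4%) on day 6, still without overlap. The summed TPM of all 8 light chains on day 6 averaged 8065 in libraries labelled KO and 2830 in WT.

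**Figure D1:**
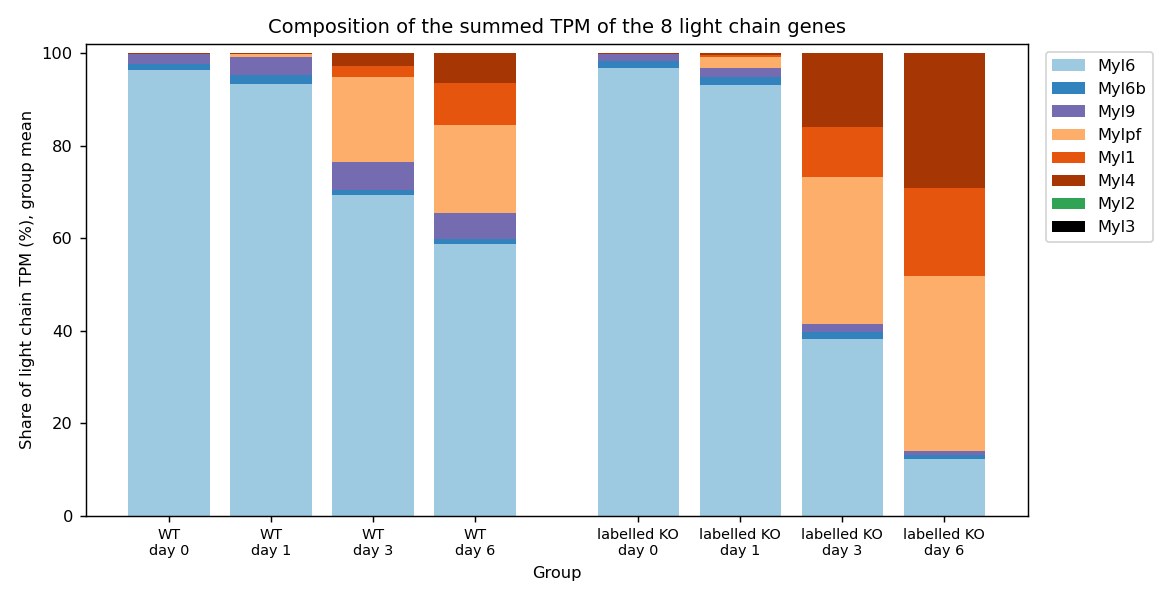
Share of the summed TPM of the 8 light chain genes (%, group mean, y axis) in each group (x axis), stacked by gene. Myl6 (pale blue) takes nearly the whole bar in growth medium, and Mylpf, Myl1 and Myl4 (orange to brown) take 86.1% of it in libraries labelled KO on day 6; Myl2 and Myl3 are too small to see.

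Counts of genes past the threshold (adjusted p under 0.05, edgeR, over 14187 genes) give the frame for the 8 tested members. In growth medium, 2 members differed between genotypes and both were higher in the libraries labelled KO, where 17.5% of all tested genes differed (7.36% higher, 10.1% lower). On day 1, 3 were higher and 3 lower, where 42.2% of all genes differed (22.9% higher, 19.2% lower). On day 3, 4 were higher and 2 lower, beside 43.2% of all genes (24.0% higher, 19.2% lower), and on day 6, 5 were higher and 2 lower, beside 42.9% (22.0% higher, 20.8% lower). The split of all calls depends on the scale: with log2(TPM + 0.1) the share of genotype calls that were higher was 43.4% on day 1, 34.3% on day 3 and 34.7% on day 6, against 54.4%, 55.5% and 51.4% in edgeR, and in growth medium it was 29.5% with library size only against 42.1%. No member call between genotypes turned direction under these scalings. With so many genes changed, sizes are given beside the counts: on day 6 the members' log2 fold changes ran from -1.19 to 3.80. The median of all tested genes was 0.0037, a value that depends on the scale and says nothing of their spread. The plot of genotype differences by day shows Myl1, Mylpf and Myl4 far above zero late in differentiation and Myl9 below it.

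**Figure D2:**
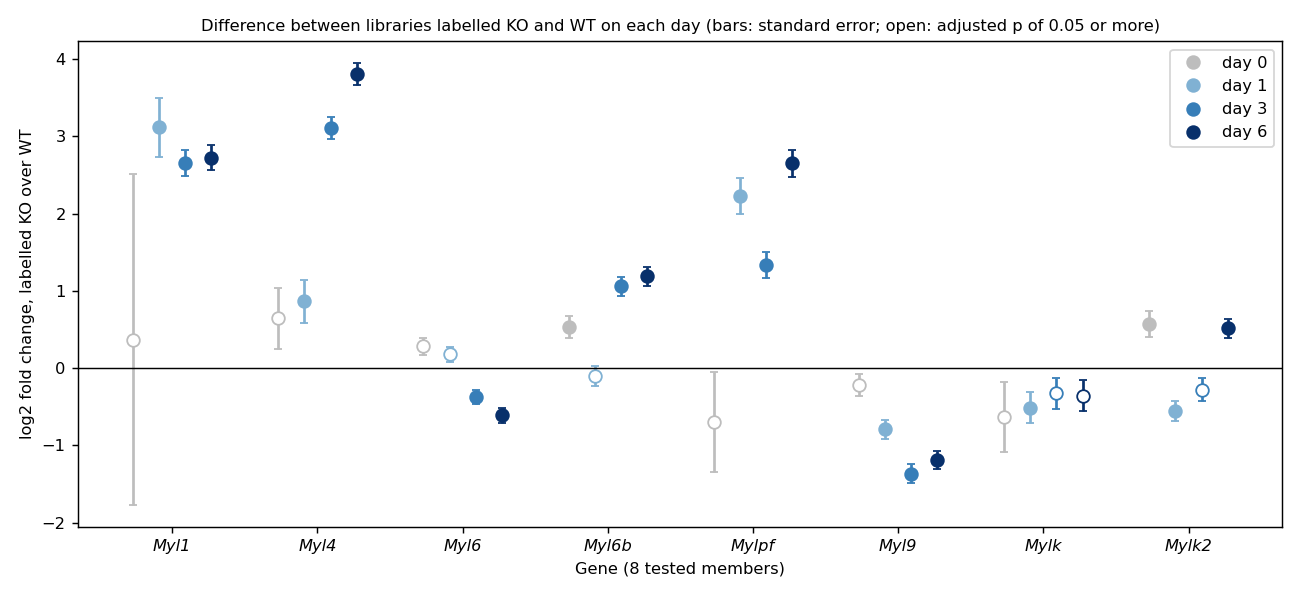
Log2 fold change of libraries labelled KO over WT (y axis) for the 8 tested genes (x axis) on 4 days; points are edgeR estimates, bars are standard errors, and open points have an adjusted p of 0.05 or more. On day 6 Myl4, Myl1 and Mylpf lie at 3.80, 2.72 and 2.65, and Myl9 at -1.19.

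Myl1 (chromosome 1, 66924295 to 66947932, GRCm38.p6) encodes the essential light chains of fast skeletal muscle, with both protein forms counted together here. In growth medium Myl1 had 0 and 1 counts in WT and 1, 0 and 1 counts in libraries labelled KO. On day 1 Myl1 stood at 1.18, 1.27 and 1.24 TPM in WT and at 9.05, 9.94 and 9.11 TPM in libraries labelled KO. The groups did not overlap, with a log2 fold change of 3.12 ± 0.38 (SE; adjusted p = 7.08e-07, edgeR). On day 3 Myl1 was at 68.6, 69.5 and 85.4 TPM in WT and at 544, 348 and 380 TPM in libraries labelled KO, and on day 6 at 323, 196 and 256 TPM against 1306, 1633 and 1668 TPM. The difference stayed near the same size, at 2.65 ± 0.17 on day 3 and 2.72 ± 0.16 on day 6 (SE; adjusted p = 1.1e-11 and 2.49e-12, edgeR), so the lowest library labelled KO on day 6 lay well above the highest WT library. Because growth medium gave 1 Myl1 count in WT and 2 in libraries labelled KO, the rise since day 0 is given as a ratio with its counting interval: 4152 (95% interval 745 to 164029) in WT and 20098 (5563 to 165965) in libraries labelled KO by day 6. For the same reason the test of a different rise between genotypes had a standard error of 3.05 on day 6 and passed no threshold (log2 difference 2.35, adjusted p = 0.712, edgeR). On log2(TPM + 1), limma gave 2.55 for that test (adjusted p = 9.2e-08). Myl1 was at most 0.15 TPM in growth medium, so adding 1 starts both genotypes near the same value. That result therefore largely repeats the day 6 difference and does not measure the rise. Of the 50-base windows of Myl1 transcripts, 16% also occur in the pseudogene Mylf-ps. That copy has no row under this symbol among the 32793, so no reads were assigned to it under that name.

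Myl4 (chromosome 11, 104546017 to 104587215), the essential light chain of embryonic muscle and adult atrium, showed the largest difference among the members on day 6. It was low in growth medium, at 1.89 and 1.41 TPM in WT and 2.19, 2.46 and 3.09 TPM in libraries labelled KO, and the log2 difference of 0.64 ± 0.40 did not pass the test (SE; adjusted p = 0.314, edgeR), though it did with limma on log2(TPM + 0.1) (0.61, adjusted p = 0.0298). On day 3 Myl4 stood at 81.8, 73.9 and 92.3 TPM in WT and at 814, 502 and 601 TPM in libraries labelled KO. On day 6 it stood at 197, 149 and 202 TPM in WT and at 2063, 2440 and 2545 TPM in libraries labelled KO. The groups were apart by more than any spread within them: log2 fold change 3.11 ± 0.14 on day 3 and 3.80 ± 0.14 on day 6 (SE; adjusted p = 3.34e-14 and 4.8e-16, edgeR). On day 1 the difference was 0.86 ± 0.28 (SE; adjusted p = 0.0162, edgeR), but without replicate 2 labelled KO of that day the adjusted p was 0.0702, and without WT replicate 1 it was 0.0556. In WT, Myl4 rose by 6.42 ± 0.25 on the log2 scale from growth medium to day 6, and in libraries labelled KO by 9.58 ± 0.20 (SE, edgeR). The rises differed by 3.16 ± 0.49 (SE; adjusted p = 7.14e-05, edgeR). Between day 1 and day 3, Myl4 rose by 4.66 in WT and 6.90 in libraries labelled KO on the log2 scale, the steepest step of this gene. Because Myl4 also marks atrial muscle, cardiomyocyte markers were read beside it: of 7, 4 passed the filter. Of those, Tnnt2, Tnni3 and Myh6 were higher in libraries labelled KO on day 6, though Tnni3 and Myh6 never exceeded 19 counts in any library. Nkx2-5, the other tested marker (211 to 580 counts over all libraries), was not called higher. Nppa, Nppb and Ryr2 never exceeded 3, 5 and 5 counts. The summed TPM of these 7 markers, mostly Tnnt2, was 297 to 373 in WT and 1544 to 2131 in libraries labelled KO on day 6.

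Myl3 (chromosome 9, 110763678 to 110769802), the essential light chain of slow muscle and ventricle, was at 0 counts in 19 of 23 libraries and at 1 count in the other 4. No difference in Myl3 was detectable at this depth.

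Myl6 (chromosome 10, 128490859 to 128493886), the essential light chain of non-muscle and smooth muscle myosin, was the most abundant member in growth medium and was lower in libraries labelled KO late in differentiation. In growth medium Myl6 was at 1441 and 1465 TPM in WT and at 1602, 1762 and 1716 TPM in libraries labelled KO, a log2 difference of 0.28 ± 0.11 that did not pass (SE; adjusted p = 0.0782, edgeR), though it did without replicate 1 labelled KO (adjusted p = 0.0373), with DESeq2 (0.0465) and with only the groups compared (0.0095). On day 3 it was at 2061, 2152 and 2103 TPM in WT and at 1406, 1485 and 1571 TPM in libraries labelled KO. On day 6 it was at 1553, 1823 and 1614 TPM in WT and at 927, 1004 and 1038 TPM in libraries labelled KO. The groups did not overlap on either day, and Myl6 was lower in libraries labelled KO by 0.37 ± 0.097 and 0.61 ± 0.097 on the log2 scale (log2 fold change -0.37 and -0.61; SE; adjusted p = 0.00314 and 1.78e-05, edgeR). In libraries labelled KO, Myl6 fell by 0.77 ± 0.097 from growth medium to day 6 (SE, adjusted p = 2.23e-07, edgeR). In WT the change of 0.13 ± 0.11 did not pass (SE, adjusted p = 0.317, edgeR), though it passed without day 6 replicate 3 (0.28, adjusted p = 0.0303). The test of the difference between genotypes in this change gave -0.90 ± 0.15 (SE, adjusted p = 0.000126, edgeR). WT Myl6 rose by 0.45 ± 0.11 from growth medium to day 3 and fell by 0.32 ± 0.097 from day 3 to day 6 (SE; adjusted p = 0.00127 and 0.0359, edgeR). The fall did not pass without 5 of the 6 WT libraries in turn, all but day 6 replicate 2 (adjusted p 0.0781 to 0.179), nor with only the groups compared (0.0725). Of the 50-base windows of Myl6 transcripts, 16.7% also occur in other genes. Most of these (13.1%) occur in Gm5526, which has no row under that symbol, so no reads were assigned to it under that name. Whether reads were split with the remaining copies was not tested.

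Myl6b (chromosome 10, 128494157 to 128498685) lies 270 bases from Myl6 and encodes an essential light chain found in non-muscle cells and slow muscle. Its level was far lower than that of Myl6, and from day 3 on it was higher in libraries labelled KO, the reverse of Myl6. On day 3 Myl6b was at 32.7, 31.9 and 36.4 TPM in WT and at 70.6, 56.6 and 62.4 TPM in libraries labelled KO, and on day 6 at 29.7, 27.8 and 33.1 TPM against 61.7, 64.7 and 61.9 TPM. Neither day showed overlap, with log2 fold changes of 1.06 ± 0.12 and 1.19 ± 0.12 (SE; adjusted p = 2.76e-07 and 4.23e-08, edgeR). In growth medium the difference was 0.53 ± 0.15 (SE; adjusted p = 0.0135, edgeR), and without WT replicate 1 it did not pass (adjusted p = 0.134). On day 1 it was -0.10 ± 0.13 (SE; adjusted p = 0.55, edgeR). In libraries labelled KO, Myl6b rose by 1.14 ± 0.12 between day 1 and day 3 (SE; adjusted p = 1.82e-07, edgeR), while the step in WT was -0.017 ± 0.13 and did not pass (adjusted p = 0.947, edgeR). The difference between those steps was not tested.

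**Figure D3:**
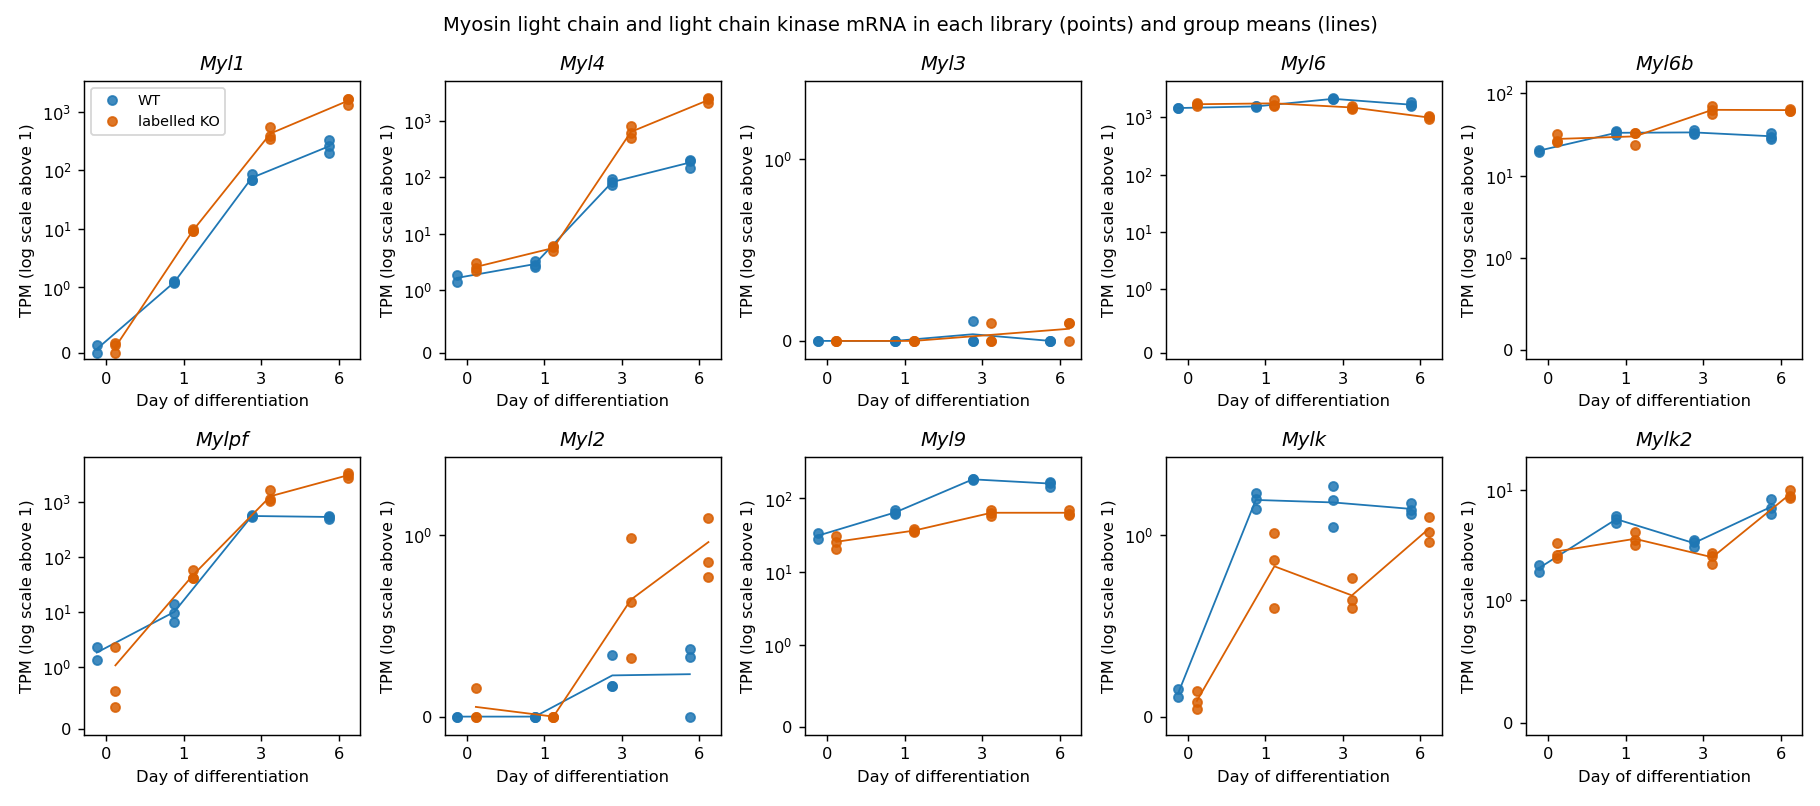
TPM of each of the 10 genes (y axis, logarithmic above 1 and linear below) by day (x axis), with 1 point per library and lines through group means; blue is WT and orange is labelled KO. On day 6 the orange points of Myl1, Myl4 and Mylpf lie above all blue ones, those of Myl6 and Myl9 lie below, and Myl3 stays at or near 0.

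Among the regulatory light chains, Mylpf was higher and Myl9 lower in libraries labelled KO from day 1 on, and both rose with time in both genotypes. Mylpf (chromosome 7, 127208848 to 127214288), the regulatory light chain of fast skeletal muscle, was at 2.36 and 1.36 TPM in WT and at 0.61, 2.3 and 0.36 TPM in libraries labelled KO in growth medium, overlapping ranges. On day 1 it stood at 9.9, 6.71 and 13.9 TPM in WT and at 41.2, 58.8 and 41.0 TPM in libraries labelled KO, a log2 fold change of 2.23 ± 0.23 (SE; adjusted p = 7.75e-08, edgeR). WT libraries then reached a plateau: Mylpf was at 534, 567 and 573 TPM on day 3 and at 561, 501 and 545 TPM on day 6, a step of -0.075 ± 0.17 on the log2 scale that did not pass (SE; adjusted p = 0.854, edgeR). Libraries labelled KO went on rising, from 1623, 1039 and 1155 TPM on day 3 to 2769, 3314 and 3106 TPM on day 6, by 1.24 ± 0.17 (SE; adjusted p = 3.42e-06, edgeR). The genotype difference was 1.34 ± 0.17 on day 3 and 2.65 ± 0.18 on day 6 (SE; adjusted p = 1.14e-06 and 2.6e-11, edgeR). The rise since growth medium was larger in libraries labelled KO on day 6 by 3.35 ± 0.71 on the log2 scale (SE; adjusted p = 0.0021, edgeR), and without WT growth-medium replicate 1 this did not pass (2.90, adjusted p = 0.0942).

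Myl9 (chromosome 2, 156775408 to 156781657), the regulatory light chain of smooth muscle and non-muscle myosin, rose in both genotypes and was lower in libraries labelled KO from day 1. In growth medium Myl9 was at 28.4 and 33.7 TPM in WT and at 20.7, 25.6 and 30.6 TPM in libraries labelled KO, overlapping ranges (log2 difference -0.21 ± 0.14; SE; adjusted p = 0.367, edgeR). On day 3 it was at 177, 185 and 185 TPM in WT and at 70.6, 58.1 and 62.9 TPM in libraries labelled KO, and on day 6 at 146, 170 and 164 TPM against 60.1, 61.4 and 70.1 TPM. The groups were apart on both days, as on day 1, with log2 fold changes of -0.79 ± 0.12, -1.36 ± 0.12 and -1.19 ± 0.12 on days 1, 3 and 6 (SE; adjusted p = 2.14e-05, 3.02e-09 and 1.99e-08, edgeR). From growth medium to day 6 Myl9 rose by 2.18 ± 0.15 in WT and by 1.20 ± 0.13 in libraries labelled KO, and the rises differed by -0.98 ± 0.19 (SE; adjusted p = 0.000802 for the difference, edgeR). The ratio of Mylpf to Myl9 TPM on day 6 was 3.38 ± 0.455 in WT and 48.1 ± 5.14 in libraries labelled KO (SD, n = 3 each). Smooth muscle markers moved with Myl9 in part: of 7, 6 passed the filter, and on day 6 Cnn1, Acta2, Smtn and Tagln were lower and Des and Lmod1 higher in libraries labelled KO. The summed TPM of the 7 ran from 2987 to 3324 in WT and from 2917 to 3123 in libraries labelled KO, and Myh11, the smooth muscle heavy chain, never exceeded 5 counts. Fibroblast markers moved with Myl9 only in part. Of 5 tested, Col1a1 and Col3a1 were lower and Dcn higher on day 6, and the rest did not pass. The summed TPM of all 6 listed was 4027 to 5102 in WT against 1564 to 1786 in libraries labelled KO. It was already apart in growth medium, at 556 to 647 against 249 to 324, where Myl9 overlapped. The part of these markers in the Myl9 result was not tested.

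Myl2 (chromosome 5, 122092724 to 122113473), the regulatory light chain of slow muscle and ventricle, stayed near the limit of detection. On day 6 it had 0, 2 and 2 counts in WT and 5, 8 and 5 counts in libraries labelled KO. The groups did not overlap, and the exact two-sided permutation test gave p = 0.1, the smallest p that 3 against 3 libraries allow.

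The kinases stayed at low levels, at most 1.98 TPM for Mylk and 9.98 TPM for Mylk2 in any library. Mylk (chromosome 16, 34745199 to 35002436), the kinase of smooth muscle and non-muscle myosin, had 8 and 8 counts in WT and 4, 7 and 4 counts in libraries labelled KO in growth medium. By day 1 the counts were 133, 94 and 79 in WT and 57, 71 and 80 in libraries labelled KO, and Mylk rose by 3.57 ± 0.31 and 3.69 ± 0.30 on the log2 scale (SE; adjusted p = 1.42e-09 and 5.42e-10, edgeR). The later steps were small on counts: those from day 1 to day 3 and from day 3 to day 6 lay between -0.32 and 0.28 and passed no edgeR test in either genotype, while the step from day 3 to day 6 in libraries labelled KO passed with limma on log2(TPM + 1) and log2(TPM + 0.1) (0.33 and 0.64, adjusted p = 0.0223 and 0.0374). The genotype difference of -0.51 ± 0.20 on day 1 passed narrowly (SE; adjusted p = 0.0398, edgeR), although 1 WT library (79 counts) lay below 1 library labelled KO (80 counts). By TPM the groups did not overlap that day, at 1.81, 1.44 and 1.65 in WT and 0.6, 0.86 and 1.02 in libraries labelled KO, and limma on log2(TPM + 0.1) gave -0.92 (adjusted p = 0.00388). On counts the difference did not pass with the replicate number as a block (-0.50, adjusted p = 0.0553), nor without a filter (-0.53, adjusted p = 0.0515), nor with only the groups compared (-0.53, adjusted p = 0.123), nor without the library that stood apart (-0.52, adjusted p = 0.0695), nor without replicate 1 of either genotype (adjusted p = 0.142 and 0.292). On day 3 the counts gave -0.33 ± 0.20 (SE; adjusted p = 0.202, edgeR) while log2(TPM + 0.1) gave -1.10 (adjusted p = 0.00079, limma). The tables differ for this gene: Mylk had 57.7 ± 23.1 counts per TPM in WT and 90.6 ± 5.46 in libraries labelled KO on day 3 (SD, n = 3 each; depth-adjusted). The same quotient for Myl9 was 12.5 ± 0.0588 and 12.5 ± 0.0206. Mylk transcripts in the annotation range from 1620 to 7824 bases, and on day 3 both tables gave the same direction with unlike sizes.

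Mylk2 (chromosome 2, 152911281 to 152923065), the skeletal muscle kinase, did not follow the sarcomeric light chains. In growth medium it was at 2.1 and 1.79 TPM in WT and at 3.3, 2.58 and 2.43 TPM in libraries labelled KO, and on day 1 at 5.41, 5.03 and 5.82 TPM against 3.13, 3.54 and 4.11 TPM. On day 3 it was at 3.35, 3.03 and 3.48 TPM in WT and at 2.66, 2.14 and 2.53 TPM in libraries labelled KO, and on day 6 at 6.8, 6.04 and 8.22 TPM against 8.48, 9.98 and 8.88 TPM. By TPM the groups did not overlap on any of the 4 days, but which was higher changed with time: log2 fold change 0.57 ± 0.17 in growth medium, -0.56 ± 0.13 on day 1, -0.28 ± 0.14 on day 3 and 0.52 ± 0.12 on day 6 (SE; adjusted p = 0.0198, 0.00186, 0.126 and 0.00174, edgeR). The growth-medium value did not pass without either WT library (adjusted p = 0.0641 and 0.166) or without replicate 1 labelled KO (0.0733), nor with limma on log2(TPM + 1) (0.35, adjusted p = 0.0821) or log2(TPM + 0.1) (0.48, adjusted p = 0.0537). The day 3 value passed on those scales (-0.32 and -0.42, adjusted p = 0.0361 and 0.03). Both genotypes fell from day 1 to day 3, WT by 0.76 ± 0.14 and libraries labelled KO by 0.48 ± 0.14, and rose from day 3 to day 6, by 1.07 ± 0.13 and 1.87 ± 0.14 (SE; adjusted p = 0.000244, 0.0144, 1.49e-05 and 3.41e-10, edgeR). The second fall did not pass without day 1 replicate 3 or without day 3 replicate 2 labelled KO (adjusted p = 0.0784 and 0.0852), nor with only the groups compared (-0.50, adjusted p = 0.101). The change from growth medium to day 1 differed between genotypes by -1.13 ± 0.21 (SE; adjusted p = 0.00378, edgeR): Mylk2 rose by 1.35 in WT, and its change of 0.22 in libraries labelled KO did not pass (adjusted p = 0.197), though it passed narrowly on both TPM scales (adjusted p = 0.0497 and 0.0449) and without growth-medium replicate 1 labelled KO (0.0493).

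Over time within a genotype, most members rose. In WT, 6 of the 8 tested members had risen since growth medium on day 1, where 54.7% of all tested genes changed (27.1% higher, 27.6% lower). On day 3 it was 8 of 8, where 58.2% changed (29.2% higher, 29.0% lower), and on day 6 it was 7 of 8, where 63.6% changed (32.6% higher, 31.1% lower); 0 members fell. In libraries labelled KO, 5 members had risen on day 1, where 52.3% changed (27.2% higher, 25.2% lower), and 6 on day 3, where 57.6% changed (30.4% higher, 27.2% lower). Myl6 there changed by -0.21 by day 3 (adjusted p = 0.0657, edgeR), a fall that passed under 7 of 15 alternatives, RLE scaling and DESeq2 among them. On day 6 there 7 had risen and Myl6 had fallen, where 70.0% changed (36.6% higher, 33.5% lower). Steps between neighbouring days were fewer among all genes. In WT, 5 members rose and Mylk2 fell from day 1 to day 3, where 19.7% of all genes changed (11.0% higher, 8.68% lower), and 3 rose and Myl6 fell from day 3 to day 6, where 9.79% changed (4.87% higher, 4.92% lower). In libraries labelled KO, 5 rose and Mylk2 fell in the first of these steps, where 26.7% changed (15.5% higher, 11.2% lower), and 4 rose and Myl6 fell in the second, where 41.3% changed (20.2% higher, 21.2% lower). The interaction test asks whether a gene moved further from its day 0 level in one genotype than in the other. On day 1 it passed for 2 members, 1 in each direction, where 3.95% of all genes passed (2.64% higher, 1.31% lower). On day 3 it passed for 1 member higher and 3 lower, where 10.7% passed (6.65% higher, 4.06% lower), and on day 6 for 3 higher and 2 lower, where 13.0% passed (7.54% higher, 5.42% lower). Here too the split of all calls depends on the scale: on log2(TPM + 0.1), 59.2% to 66.3% of calls against growth medium were higher, against 49.6% to 52.7% in edgeR. Of the day 1 and day 3 interaction calls, 54.6% and 47.6% were higher on that scale, against 66.8% and 62.1% in edgeR. For the step from day 3 to day 6 in libraries labelled KO, the share was 48.8% in edgeR, 57.1% with RLE scaling and 56.4% with DESeq2. The rises of Myl9 in libraries labelled KO on day 1 (0.34 ± 0.13; SE; adjusted p = 0.0303, edgeR) and of Myl1 in WT on day 1 each rested on few libraries: the first did not pass without any 1 of 4 libraries labelled KO (day 0 replicates 1 and 2 and day 1 replicates 1 and 3; adjusted p 0.0591 to 0.177) or with only the groups compared (0.0971), the second without WT growth-medium replicate 1 (adjusted p = 0.108). In WT, the rise of Myl6b by day 6 did not pass without growth-medium replicate 1 (adjusted p = 0.106), nor that of Mylk2 by day 3 without growth-medium replicate 2 (adjusted p = 0.0569). The rise of Myl4 in libraries labelled KO on day 1 (0.83 ± 0.28; SE; adjusted p = 0.018, edgeR) did not pass without the library that stood apart (adjusted p = 0.0587) or without growth-medium replicate 1 (0.0754). Without the library that stood apart, 4 members in place of 6 differed between genotypes on day 1, as the Myl4 and Mylk calls were lost.

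Ordered by mean TPM on day 6, WT had Myl6 (1663) first, then Mylpf (536), Myl1 (258), Myl4 (183), Myl9 (160), Myl6b (30.2), Mylk2 (7.02) and Mylk (1.44). Of neighbours in that order, the ranges of Myl1 and Myl4 overlapped, but within each library Myl1 was above Myl4 (55.8% to 62.1% of their sum). The ranges of Myl4 and Myl9 overlapped too, and their order differed from library to library. Libraries labelled KO had Mylpf (3063) first, then Myl4 (2350), Myl1 (1536), Myl6 (990), Myl9 (63.9), Myl6b (62.7), Mylk2 (9.11) and Mylk (1.10). There the ranges of Myl9 and Myl6b overlapped, and their order differed from library to library.

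The genes most like each member were found among 10089 genes by Pearson correlation of log2 CPM (counts scaled to library size) over the 8 group means, which share libraries and depth, and are given as a description. Mylpf was closest to Tnni1 and Mybph (r = 0.996 and 0.994), and Myl1 to Myom3 and Hrc (0.996 and 0.995). Tnni1 encodes slow skeletal troponin I, and Myom3 and Mybph encode sarcomere proteins. Myl4 was closest to Itgb1bp2, which encodes melusin, and Gm14635 (0.997 and 0.995). Myl9 was closest to Plod1, a collagen lysyl hydroxylase, and Pla2g15 (0.975 and 0.972), and Myl6 to Dstn, which encodes the actin-severing protein destrin, and Rdh11 (0.971 and 0.937). Myl6b was closest to Gtpbp6 and Popdc2 (0.977 and 0.971), Mylk to Snapin and Calcoco1 (0.996 and 0.995), and Mylk2 to Phldb3 and Rassf8 (0.935 and 0.931). Among members, Myl1 with Mylpf (0.991) and Myl1 with Myl4 (0.965) were the closest pairs.

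Partner genes of the light chains were read from fixed lists, with the median log2 fold change of labelled KO over WT on day 6 for each. On that day 42.9% of all tested genes differed (22.0% higher, 20.8% lower). Of 6 other light chains and kinases, 4 were tested and 2, Mylk4 and Mylk3, were higher. The median of 1.26 lies between these kinases and the light chains Myl12a and Myl12b, and describes no gene. Mylk4, a muscle-expressed kinase of the same family, was at 1.47 ± 0.308 TPM in WT and 8.86 ± 0.870 TPM in libraries labelled KO (SD, n = 3 each; log2 fold change 2.73, adjusted p = 1.17e-11, edgeR). The non-muscle regulatory light chains Myl12a and Myl12b, close copies whose reads could be split between them, differed by 0.15 and -0.067 (adjusted p = 0.0575 and 0.61, edgeR), and Myl12a, at 1155 ± 49.9 and 1172 ± 17.8 TPM (SD, n = 3 each), was far above Myl9. Myl7 and Myl10 never exceeded 4 and 1 counts.

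**Figure D4:**
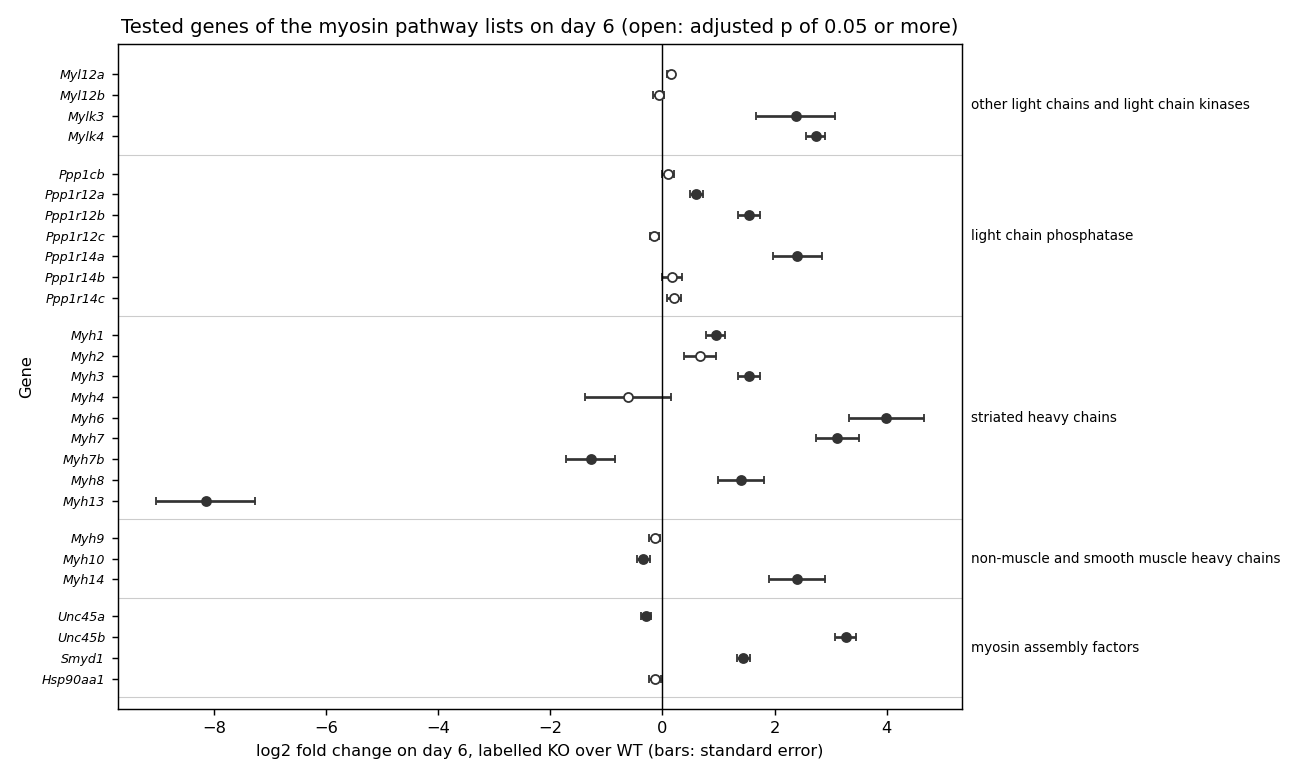
Log2 fold change of libraries labelled KO over WT on day 6 (x axis) for the tested genes of 5 lists of myosin partners (y axis, list names at right); bars are standard errors and open points have an adjusted p of 0.05 or more. Mylk4, Unc45b, Myh7 and Myh3 lie to the right; the estimate for Myh13 has no size meaning, since Myh13 had 0 counts in all 3 libraries labelled KO.

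Of 9 striated muscle heavy chains, all tested, 5 were higher and 2 lower on day 6 (median 0.95), beside 22.0% higher and 20.8% lower among all tested genes. Embryonic Myh3 was at 58.3 ± 26.4 TPM in WT and 158 ± 14.3 TPM in libraries labelled KO (log2 fold change 1.55, adjusted p = 1.15e-06, edgeR), fast Myh1 at 28.3 ± 9.27 and 49.2 ± 5.53 TPM (0.95, adjusted p = 7.59e-05, edgeR), and slow and cardiac Myh7 at 0.21 ± 0.101 and 1.62 ± 0.197 TPM (3.12, adjusted p = 9.29e-07, edgeR; SD, n = 3 for each). The 2 lower genes were Myh7b and Myh13. Myh13, named after its values were seen, had 40, 33 and 36 counts in WT and 0 in each library labelled KO. Of 4 non-muscle and smooth muscle heavy chains, 3 were tested, with Myh14 higher, Myh10 lower (log2 fold change -0.34, adjusted p = 0.017, edgeR) and Myh9, the most abundant, not passing (-0.14, adjusted p = 0.259; median of the list -0.14).

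Of the 4 myosin assembly factors, Unc45b and Smyd1, which act in folding and building sarcomeric myosin, were higher and Unc45a was lower (median 0.66). Unc45b was at 4.77 ± 0.583 TPM in WT and 42.2 ± 1.19 TPM in libraries labelled KO, and Smyd1 at 15.8 ± 1.67 and 39.2 ± 1.85 TPM (SD, n = 3 each; log2 fold changes 3.27 and 1.44, adjusted p = 1.26e-11 and 3.1e-10, edgeR). The chaperone Hsp90aa1 did not pass (-0.13, adjusted p = 0.323, edgeR). Of 7 genes of the light chain phosphatase and its inhibitors, Ppp1r12a, Ppp1r12b and Ppp1r14a were higher (3 genes, median of the list 0.21). The most abundant 3, Ppp1r14b, the catalytic subunit Ppp1cb and Ppp1r12c, did not pass (0.17, 0.097 and -0.15). Of all tested genes, 42.9% differed on day 6 (22.0% higher, 20.8% lower), and the share of the phosphatase list that differed was near that.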

How the data were processed

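Gene tables of 23 libraries were analysed. Per the submitters' processing notes, Bowtie2 and RSEM were used with build mm10; versions, annotation and use of strand are not given in the sources used here. The authors deposited estimated counts per gene symbol as whole numbers (rounding changed no value) and TPM, normalised by the authors for transcript length and depth. Rows that sum to 0 in every library numbered 12326 of 32793.

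Counts were tested in edgeR 4.0.16 (R 4.3.3; quasi-likelihood F-test) with TMM scaling, filterByExpr (minimum count 10, minimum total count 15, leaving 14187 genes) and 1 group-means model over all libraries. There were 17 contrasts: labelled KO against WT on 4 days, days against growth medium and neighbouring days within each genotype, and 3 genotype-by-day interactions. Adjusted p-values (Benjamini-Hochberg, all tested genes) were called below 0.05. Standard errors were derived from the F statistic. Composition was computed from TPM. Intervals cover counting error only, as do low counts read as not detectable. Alternatives were RLE scaling, library size only, DESeq2 1.42.0, no filter on counts, a mean count filter of 50, limma 3.58.1 on log2(TPM + 1) and log2(TPM + 0.1), only the groups compared, a replicate block, and each library left out.

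The members and lists were chosen with earlier results of these data known. Named genes were all members, the 3 genes of each partner list with the highest group mean TPM, and the 2 genes most correlated with each tested member whose highest group mean was at least 10 CPM; list genes outside that rule are named where a count is given. Marker lists for myoblasts, differentiated muscle, cardiomyocytes, smooth muscle, fibroblasts, adipocytes, endothelium and macrophages were read for level: the last 3 summed to at most 20.2, 0.55 and 17.2 TPM. Some partner genes are not reported here. The edgeR step was tested on simulated data. Promoters were taken from RefSeq and exons from GENCODE on GRCm38.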

Additional observations from a re-analysis of the deposited data

Results flagged for a closer look

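In 11 cases the genotypes differed in how far a gene had moved from its growth-medium level, by the interaction test of edgeR (adjusted p under 0.05); each value is the log2 change in libraries labelled KO minus that in WT. On day 1 it was 2.92 for Mylpf (adjusted p = 0.0213) and -1.13 for Mylk2 (adjusted p = 0.00378). The Mylpf value did not pass without either WT growth-medium library or without growth-medium replicate 1 labelled KO (adjusted p = 0.0652 to 0.26), nor with only the groups compared (0.072). On day 3 it was 2.46 for Myl4, -1.15 for Myl9, -0.66 for Myl6 and -0.85 for Mylk2 (adjusted p = 0.00104, 0.00019, 0.00387 and 0.0136); the Mylk2 value did not pass without WT growth-medium replicate 2 (adjusted p = 0.0921). On day 6 it was 3.35 for Mylpf, 3.16 for Myl4, 0.66 for Myl6b, -0.90 for Myl6 and -0.98 for Myl9 (adjusted p = 0.0021, 7.14e-05, 0.0232, 0.000126 and 0.000802). The Mylpf value of day 6 did not pass without WT growth-medium replicate 1 (adjusted p = 0.0942). The Myl6b value did not pass without any 1 of 7 libraries in turn (adjusted p 0.0509 to 0.135): both WT growth-medium libraries, growth-medium replicates 2 and 3 and day 6 replicate 2 labelled KO, and WT day 6 replicates 1 and 3.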

How the results depend on the processing

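Of 2125 values of 136 member comparisons under the alternatives, 2032 kept their direction and side of the threshold, 92 changed side and 1 reversed: the day 3 interaction of Mylk was -0.56 (adjusted p = 0.0313) with limma on log2(TPM + 1), against 0.31 (not passing) in edgeR. Between genotypes in growth medium, 2 members differed, but 3 with DESeq2 and with only the groups compared, 1 with log2(TPM + 1) and 0 to 2 with a library left out. Members passing the day 1 interaction numbered 2, but 4 without a filter, 4 with DESeq2, 1 with only the groups compared and 1 to 3 with a library left out. For the day 3 interaction, 4 became 7 with log2(TPM + 1), and for day 6, 5 became 3 to 5 with a library left out. Among all genes, 560 passed the day 1 interaction in edgeR, 630 without a filter and 827 with DESeq2. The day 3 interaction passed for 1519, and for 1586 with log2(TPM + 1). Between genotypes in growth medium 2479 passed, 2652 with DESeq2, 3618 with only the groups compared and 2077 with log2(TPM + 1). With only the groups compared, genes passing changed from 5981 to 3607 for the genotypes on day 1 and from 2797 to 4642 for WT day 3 against day 1. They changed from 3790 to 1659 for libraries labelled KO in that step, and from 560 to 239 and 1519 to 2613 for the day 1 and day 3 interactions. With single libraries left out, genes passing ran from 1265 (without WT growth-medium replicate 1) to 2216 for the genotypes in growth medium (2479 with all), from 762 (without WT day 6 replicate 1) to 1579 for WT day 6 against day 3 (1389), and from 148 to 919, 829 to 1429 and 1184 to 1861 for the interactions on days 1, 3 and 6 (560, 1519 and 1839), each lowest without WT growth-medium replicate 2. The sarcomeric share on day 1 in libraries labelled KO was 3.44% on CPM against 3.28% on TPM. With the other light chains Myl7, Myl10, Myl12a and Myl12b in the denominator, an alternative chosen after seeing the data, the sarcomeric share on days 0, 1, 3 and 6 was 0.131%, 0.374%, 14.9% and 22.0% in WT and 0.121%, 1.59%, 39.3% and 71.9% in libraries labelled KO, lower because the denominator is larger. The other causes were not tested. On log2(TPM + 0.1) the median of all genes moved from 0.0037 to -0.12 for the genotypes on day 6 and from 0.047 to 0.20 for WT day 6 against growth medium. The replicate numbers were not shown to pair the libraries, since same-numbered deviations had mean correlations of -0.094 to 0.049. With the replicate block, 1 member call was lost, that of Mylk on day 1 (-0.50, adjusted p = 0.0553). Low counts limit Myl1 in growth medium and Myl2 and Myl3 throughout.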

Other observations

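The balance between the essential light chains Myl1 and Myl4 varied by group. Myl1 made up 29.9% ± 2.46 of the summed TPM of Myl1 and Myl4 in WT on day 1 and 58.3% ± 3.37 on day 6, while in libraries labelled KO it made up 62.7% ± 2.44 on day 1 and 39.5% ± 0.668 on day 6 (SD, n = 3 each). The order of the genotypes was therefore opposite on the first and the last day of differentiation, and no test was made of this ratio.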
